A study of Mus musculus with 16 samples.

Results

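The 70 genes described here encode the heat shock proteins and DnaJ cochaperones of the mouse outside the Hsp70 and Hsp90 of the endoplasmic reticulum: Hsp70 and Hsp110 (Hspa, Hsph), Hsp90, the small heat shock proteins (Hspb), the mitochondrial chaperonin (Hspd, Hspe) and the 3 DnaJ classes (Dnaja, Dnajb, Dnajc). They were chosen by name, from probe sets that the platform annotation ties to exactly 1 gene symbol with one of these prefixes, leaving out Hspa5 and Hsp90b1. That gave 169 probe sets for 70 genes, of 34945 single-symbol probe sets for 18193 genes, and each gene is represented by its brightest probe set, by the mean of the 16 arrays. Of the 70 genes, 61 were bright enough to be tested, among 13011 genes tested in all. The other 9 lay under the filter on the mean level, a log2 value of 5.944: Dnajb3, Dnajb7, Dnajb13, Dnajc5b, Dnajc5g, Dnajc25, Hspa1l, Hspb7 and Hspb9. Hspb2 (mean 6.04) and Hspb3 (6.16) lay just inside this limit, and Dnajc25 (5.93) and Hspb7 (5.89) just outside it. Hspbap1, Hspbp1 and Hspb11 carry the prefix but are not heat shock chaperones themselves, and Hsp90ab1 was not analysed here.

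Striatal RNA of B6xCBA mice of 4 genotypes was measured, with 4 biological replicates of each and 1 Affymetrix Mouse Genome 430 2.0 array per replicate, 16 in all. The groups were wild type; DREAM+/-, heterozygous for a knockout of DREAM, the calcium-binding repressor of transcription encoded by Kcnip3; R6/2, a Huntington's disease model whose transgene is exon 1 of the human huntingtin gene, with an expanded CAG tract; and R6/2 x DREAM+/-, the cross of both. The labels name striatal neurons as the cell type, while RNA was taken from the striatum as a whole; in bulk tissue fewer cells of a type and less RNA per cell cannot be told apart. The labels do not state age, sex, CAG tract length or whether animals were pooled. The series asks what lowered DREAM does in the striatum of mice with mutant huntingtin, and its groups allow the R6/2 difference to be read on both DREAM backgrounds and the DREAM+/- difference with and without R6/2.

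Kcnip3 itself was lower in both DREAM+/- groups, as labelled; the labels do not say whether its probe set lies in the deleted stretch. Wild type had a log2 level of 9.67 ± 0.24 (SD, n = 4) and R6/2 one of 9.11 ± 0.09, while DREAM+/- had 7.77 ± 0.04 and R6/2 x DREAM+/- had 7.56 ± 0.12. Correlations between arrays of 1 genotype lay between 0.9903 and 0.998 over all probe sets. A pair of arrays stood apart. R6/2 replicate 1 had an Xist level of 6.49 where the other 15 arrays read 11.04 to 12.16, and R6/2 x DREAM+/- replicate 3 was the highest of its group for 44.8% of all genes tested. Xist is transcribed from the inactive X chromosome of females. The mean of Y-linked Eif2s3y, Kdm5d and Uty was highest on R6/2 replicate 1 (7.627) and at most 6.283 on the other R6/2 arrays. It read 5.47, 5.52, 6.8 and 6.433 in wild type, 6.54 to 6.91 in DREAM+/- and 5.327 to 6.4 in R6/2 x DREAM+/-. Arrays with high Xist thus differed in Y-linked level, and the sex behind each array was not established. Counts of chaperone genes are given with and without the pair of arrays that stood apart.

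Chaperones bind unfolded or misfolded proteins and help them fold, disassemble or reach degradation. Hsp70 does so in cycles of ATP hydrolysis that DnaJ proteins start through their J domain and that Hsp110 and BAG-domain proteins reset as nucleotide exchange factors. Heat shock factor 1 (HSF1) induces many of these genes by binding inverted repeats of the unit nGAAn in their promoters, and a weakened response of this kind has been described in Huntington's disease models. In neurons the family also has steady duties: Hspa8 with auxilin (Dnajc6) strips clathrin from vesicles, and Dnajc5 keeps synaptic vesicle proteins folded.

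To show what distinguishes the promoters of the genes that the results turn on, 4 RefSeq promoter sequences of mouse build GRCm38.p6 follow, each 250 bases before to 50 bases after an annotated start, read along the gene's strand. Capitals mark the HSF1 repeat in its 2-unit forms GAANNTTC and TTCNNGAA and in longer runs that join them. Hspa1b and Hsph1 fell in R6/2, Hspe1 has the longest run and did not pass a test, and Dnajb5 fell with no repeat in this window.
Hspa1b, chr17:34959189-34959488, minus strand: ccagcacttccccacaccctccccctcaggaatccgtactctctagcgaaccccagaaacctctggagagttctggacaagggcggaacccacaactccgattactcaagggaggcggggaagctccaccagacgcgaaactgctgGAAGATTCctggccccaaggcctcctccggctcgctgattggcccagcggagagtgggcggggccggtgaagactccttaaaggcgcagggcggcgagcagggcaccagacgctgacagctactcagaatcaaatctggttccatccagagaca
Hsph1, chr5:149636287-149636586, minus strand: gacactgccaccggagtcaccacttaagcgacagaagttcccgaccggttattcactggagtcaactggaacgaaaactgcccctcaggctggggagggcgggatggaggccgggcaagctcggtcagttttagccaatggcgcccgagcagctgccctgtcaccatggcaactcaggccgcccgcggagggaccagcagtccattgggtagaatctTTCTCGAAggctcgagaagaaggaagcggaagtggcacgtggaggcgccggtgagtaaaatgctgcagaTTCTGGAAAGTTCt
Hspe1, chr1:55087898-55088197, plus strand: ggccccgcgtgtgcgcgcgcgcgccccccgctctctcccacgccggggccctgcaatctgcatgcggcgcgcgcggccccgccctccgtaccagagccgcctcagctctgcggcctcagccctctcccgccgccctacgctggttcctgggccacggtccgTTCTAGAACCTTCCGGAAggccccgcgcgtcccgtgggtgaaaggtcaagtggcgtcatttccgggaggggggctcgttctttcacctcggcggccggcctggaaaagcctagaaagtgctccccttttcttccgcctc
Dnajb5, chr4:42949640-42949939, plus strand: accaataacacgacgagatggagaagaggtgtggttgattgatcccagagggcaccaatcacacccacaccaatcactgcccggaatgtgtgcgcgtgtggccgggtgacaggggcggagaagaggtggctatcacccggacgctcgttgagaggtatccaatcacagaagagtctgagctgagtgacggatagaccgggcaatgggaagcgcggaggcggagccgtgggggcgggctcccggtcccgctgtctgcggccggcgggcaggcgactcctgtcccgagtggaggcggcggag
The Hspa1b window holds 1 match, starting at base 147, which is 104 bases before the start. The Hspa1a window (chr17:34972107-34972406, minus strand) is identical to it at 296 of 300 bases and has the same match at the same place. In Hsph1 the first match lies 33 bases before the start, and in Hspe1 it lies 89 bases before.

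RefSeq promoters were matched for 57 of the 70 genes. Both motifs read the same on either strand. GAANNTTC was found in 14 of the 57 (24.6%), against 7.86% of all 32851 promoters in the table and 9.04% of the genes in it. TTCNNGAA was found in 6 (10.5%), against 8.52% of promoters and 9.6% of genes. In a run of 3 units both 2-unit forms overlap and share their middle unit. Such a run was found in 4 genes (7.02%), Dnajb6, Hspd1, Hspe1 and Hsph1, against 0.603% of promoters and 0.662% of genes. Hspd1 and Hspe1 are divergent neighbours and their windows share this stretch. Matches of this kind are a description of letters, not of binding.

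In R6/2 against wild type the chaperone genes moved in both directions. Genes for inducible Hsp70 (Hspa1a, Hspa1b), Hsph1 and the DnaJ proteins Dnajb5 and Dnajc2 were lower, while constitutive Hspa8, the type A DnaJ genes Dnaja1 and Dnaja4 and several Dnajc genes were higher. Of the 61 tested, 9 were higher and 10 lower in limma's test, by a p adjusted over all genes tested (Benjamini-Hochberg) and under 0.05, which is 31.1% beside 25.4% of all 13011 genes. Higher calls made up 14.8% of these genes beside 13.5% of all genes, and lower calls 16.4% beside 11.9%. The median log2 difference was 0.03 over the 61 genes, as it was over all genes, and the median size of a difference was 0.11 in both. In 18 of the 61 (29.5%) the groups did not overlap, beside 25.2% of all genes. These shares and sizes lie near those of all genes, so the account that follows is of single members. Leaving out 1 array at a time gave 13 to 22 calls, beside 2692 to 3718 among all genes. Leaving out the pair of arrays that stood apart gave 19 (10 higher, 9 lower), and shifting all arrays to a common median gave 6 higher and 10 lower.

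**Figure D1:**
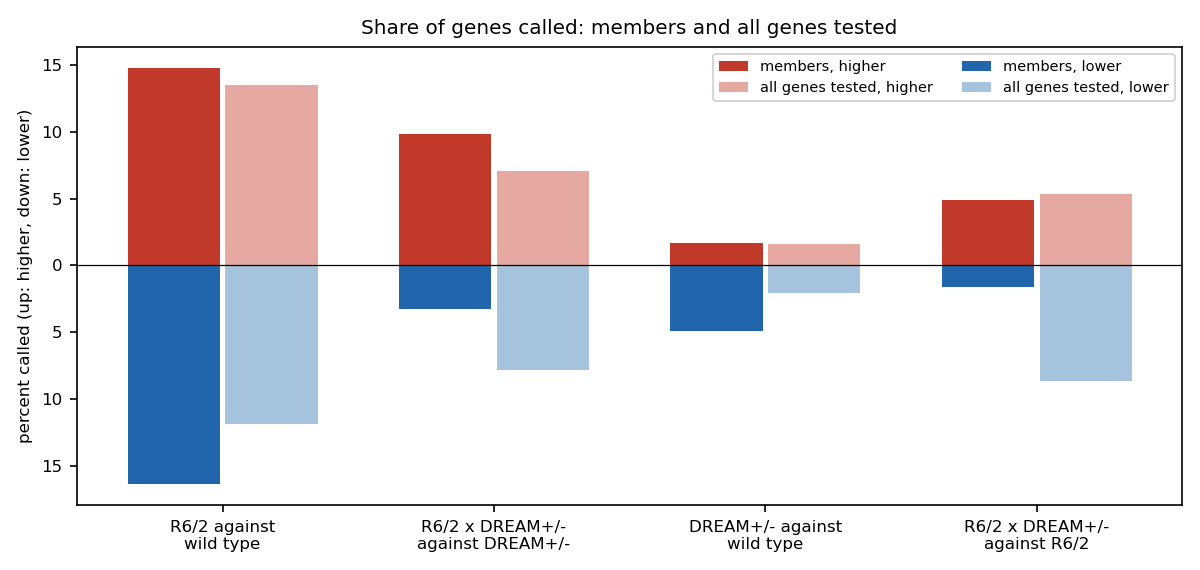
Percent of genes called in each comparison (limma adjusted p under 0.05), upward for higher and downward for lower in the first-named group. Dark bars are the 61 tested chaperone genes and pale bars all 13011 genes tested; in R6/2 against wild type 14.8% and 16.4% of the chaperone genes were called higher and lower.

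Among the 8 tested genes of cytosolic Hsp70 and Hsp110, 1 rose and 3 fell in R6/2. Hspa1b, a stress-inducible Hsp70, read 8.69, 8.69, 9.36 and 8.95 in wild type and 8.22, 8.74, 7.79 and 7.81 in R6/2. R6/2 replicate 2 was as high as the lower wild-type arrays, while replicates 1, 3 and 4 were below every wild-type array. The difference was -0.78 (95% interval -1.25 to -0.31), or 58.1% of wild type, with an adjusted p of 0.0155. All 3 Hspa1b probe sets were lower, with differences of -0.78, -0.92 and -0.95, and on each of them R6/2 replicate 2 was the highest of its group. The call was lost on leaving out wild-type replicate 3 or R6/2 replicate 3 or 4, with adjusted p up to 0.0552, and over all 16 such fits the difference lay between -0.98 and -0.64. Hspa1a, its near-identical neighbour on chromosome 17, read 7.59, 7.83, 7.98 and 7.97 in wild type and 7.46, 7.78, 7.28 and 7.55 in R6/2. These groups overlapped as well, and the difference of -0.33 (SE 0.10) had an adjusted p of 0.0237. Leaving out wild-type replicate 3 or 4 or R6/2 replicate 1 or 3 ended that call, with adjusted p-values up to 0.0876. Since the sequences of both genes are nearly the same, their probe sets may not be independent measures.

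Hsph1 encodes Hsp105, a member of the Hsp110 family that exchanges the nucleotide of Hsp70. It read 11.79, 11.81, 11.79 and 11.73 in wild type and 11.58, 11.57, 11.57 and 11.58 in R6/2. Every R6/2 array was lower than every wild-type array, with a spread within R6/2 that was far smaller than the gap. The difference was -0.20 (SE 0.05; adjusted p 0.00349), 86.7% of wild type, and it was called in each of the 28 other settings. Hspa8, the constitutive Hsc70, moved the other way, from 13.51, 13.54, 13.55 and 13.54 in wild type to 13.67, 13.76, 13.67 and 13.65 in R6/2. Its groups did not overlap, and the rise of 0.15 (SE 0.04; adjusted p 0.0119) equals 111% of wild type. Hspa8 had the smallest pooled SD of the 61 genes (0.0325 log2, percentile 0.261 among all genes tested) and Hspa1b one of the largest (0.371, percentile 99.5). The rise of Hspa8 was not called when its 4 probe sets were averaged or when the arrays were shifted to a common median (adjusted p up to 0.255). Hspa4, another Hsp110, differed by -0.12 (adjusted p 0.125) and Hspa2, an Hsp70 best known from testis, by 0.14 (adjusted p 0.153). The Hspa4 value is that of its brightest probe set, where the groups overlapped. Another Hspa4 probe set read 9.61 to 9.79 in wild type and 9.46 to 9.55 in R6/2, without overlap. A further probe set read 8.53 to 8.71 in wild type and 8.21 to 8.46 in R6/2, also without overlap. The dimmest read 5.99 to 6.33 in wild type and 5.8 to 6 in R6/2, with overlap.

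**Figure D2:**
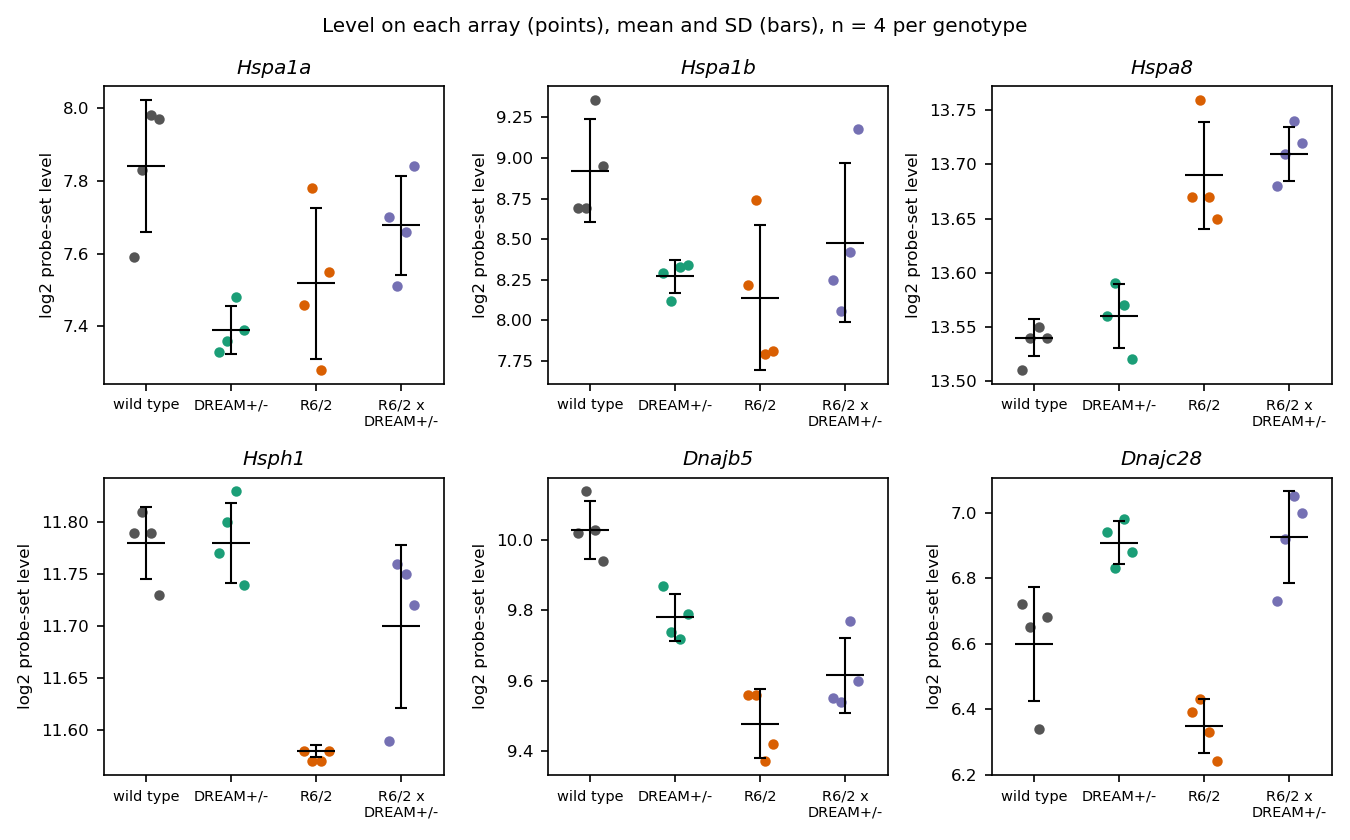
Log2 level of 6 chaperone genes on each array (points), with the mean and SD of the 4 arrays per genotype (bars); each panel has its own axis range. Hsph1 read 11.57 to 11.58 on the R6/2 arrays and 11.73 to 11.81 in wild type, while the R6/2 arrays of Hspa1b spread from 7.79 to 8.74.

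Of the 8 tested genes in the type B DnaJ list, Dnajb5 was the one called. That list leaves out Dnajb9 and Dnajb11, which were counted with the endoplasmic reticulum. Dnajb5 is a cytosolic and nuclear partner of Hsp70 close in sequence to Dnajb1. It read 10.02, 10.14, 10.03 and 9.94 in wild type and 9.56, 9.56, 9.37 and 9.42 in R6/2. All R6/2 arrays were lower than all wild-type arrays, and the level was 68.1% of wild type (log2 difference with SE 0.06; adjusted p 1.01e-05). Its 3 probe sets were lower, with differences of -0.22, -0.39 and -0.55, and the call held in each of the 28 other settings. None of the other 7 genes of this list was called. Among them, Dnajb4, also close in sequence to Dnajb1, differed by -0.12 (95% interval -0.26 to 0.02) and Dnajb14 by -0.11 (-0.30 to 0.08), in the direction of Dnajb5. Dnajb1, the main Hsp40 of the stress response, differed by 0.01 (95% interval -0.14 to 0.16), Dnajb2, a neuronal J protein that binds ubiquitin, by 0.00 (-0.16 to 0.16), and Dnajb6, a suppressor of polyglutamine aggregation, by 0.04 (-0.06 to 0.14). The intervals of these 5 genes leave out a change of the size seen in Dnajb5.

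Members of the type A class share a zinc-finger region with bacterial DnaJ. Its list, which leaves out Dnaja3, had 2 of 3 tested genes called higher. Dnaja3 was counted with the mitochondrial genes, had means of 9.698 in wild type and 9.79 in R6/2, and was not called. Dnaja4 read 9.80, 9.85, 9.92 and 9.89 in wild type and 10.14, 10.24, 10.00 and 9.96 in R6/2, without overlap. Its rise of 0.22 (SE 0.07) had an adjusted p of 0.0196 and did not pass without wild-type replicate 1 or without R6/2 replicate 1 or 2, where the adjusted p reached 0.0713. Dnaja1 rose by 0.12 with an adjusted p of 0.0498, a call that leaving out any of 12 of the 16 arrays ended (adjusted p up to 0.130).

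Among the 10 tested DnaJ genes of the ribosome, nucleus and other sites, 2 rose and 2 fell. Dnajc2 encodes zuotin-related MPP11, the J protein of the ribosome-associated complex. It read 9.59, 9.63, 9.52 and 9.59 in wild type and 9.10, 9.22, 9.08 and 9.07 in R6/2, so no arrays overlapped. The level in R6/2 was 72.5% of wild type (SE 0.08 on the log2 scale; adjusted p 0.000339). Dnajc8, a J protein found with the spliceosome, fell, with a log2 difference of -0.24 (SE 0.06; adjusted p 0.0074), from 11.57 to 11.63 in wild type to 11.24 to 11.46 in R6/2. Dnajc12, a cochaperone of the aromatic amino acid hydroxylases, rose from 9.40, 9.14, 9.30 and 9.02 to 9.50, 9.52, 9.66 and 9.51. That difference of 0.33 (SE 0.08; adjusted p 0.00499) was 126% of wild type. Dnajc27, a small GTPase with a J domain, rose by 0.30 (SE 0.09; adjusted p 0.0226), which was no longer called without any 1 of wild-type replicates 1 and 3 and R6/2 replicates 2 to 4, where the adjusted p reached up to 0.0742. The calls of Dnajc2, Dnajc8 and Dnajc12 were kept in each of the 28 other settings.

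In the mitochondrial list 2 of 9 tested genes rose and 1 fell. Dnajc4 rose from 8.53 to 8.69 in wild type to 8.75 to 8.83 in R6/2, by 0.21 (SE 0.05; adjusted p 0.00452). Dnajc30, a mitochondrial inner membrane J protein, rose by 0.15 (SE 0.05; adjusted p 0.0209), and was not called without wild-type replicate 3 or without R6/2 replicate 4 (adjusted p up to 0.0601). Dnajc28 fell, with overlapping groups and a log2 difference of -0.25 (SE 0.08; adjusted p 0.0326), and this call ended without any 1 of 5 arrays, wild-type replicates 1, 2 and 4 and R6/2 replicates 3 and 4 (adjusted p up to 0.0995). The chaperonin pair and mitochondrial Hsp70 stayed near their wild-type levels: Hspd1 differed by 0.08 (95% interval -0.03 to 0.18), Hspe1 by -0.03 (-0.13 to 0.06) and Hspa9 by -0.01 (-0.12 to 0.11).

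Of 8 tested J proteins of the endoplasmic reticulum 2 were lower. Dnajc10, the disulfide reductase ERdj5, read 10.12, 9.92, 10.04 and 9.92 in wild type and 9.82, 9.70, 9.81 and 9.76 in R6/2, without overlap, and its difference was -0.23 (SE 0.05; adjusted p 0.00435). This was 1 of its 3 probe sets, and the other two read 0.04 and 0.05 higher, so the direction in R6/2 rests on the probe set used. Dnajb11, the BiP partner ERdj3, fell, with a log2 difference of -0.18 and an adjusted p of 0.0441, and leaving out any of 10 of the 16 arrays ended the call (adjusted p up to 0.136). Hspa13, an Hsp70-like ATPase of the microsomes, rose from 10.06 to 10.28 in wild type to 10.32 to 10.44 in R6/2, by 0.21 (SE 0.06; adjusted p 0.0185). All 4 Hspa13 probe sets were higher in R6/2, and the call needed wild-type replicates 2 and 4 and R6/2 replicate 1, since without any of these the adjusted p rose to as much as 0.0586, and the mean of the 4 probe sets was not called (adjusted p 0.176).

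Small heat shock proteins hold unfolded proteins without ATP. Hspb8, the partner of Bag3 in selective autophagy, read 8.0, 7.77, 8.0 and 8.03 in wild type and 7.68, 7.76, 7.72 and 7.52 in R6/2. All R6/2 arrays were lower than all wild-type arrays, though only just below wild-type replicate 2, and the difference was -0.28 (SE 0.07; adjusted p 0.00824). Its other probe sets differed by -0.14 and 0.04 and were not called. Hspb1 (Hsp25 in mouse) differed by -0.03 (95% interval -0.28 to 0.22), with R6/2 replicate 2 at 9.76 and the other R6/2 arrays at 9.06 to 9.38. Hsp90aa1, the inducible cytosolic Hsp90, differed by 0.06 and was not called. The 3 synaptic and clathrin-linked genes, Dnajc5, Dnajc6 and Dnajc13, were not called in R6/2 against wild type. Hspbap1, which binds Hspb1, rose by 0.27 (SE 0.06; adjusted p 0.00574).

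The same transgene difference was then read among mice that lack 1 DREAM allele, by setting R6/2 x DREAM+/- against DREAM+/-. Here 8 of the 61 genes were called, 6 higher and 2 lower (13.1%, beside 14.9% of all genes, of which 7.07% were higher and 7.87% lower), and the groups did not overlap in 15 (24.6%, beside 18.9%). The median difference was 0.06, beside 0.02 over all genes. Hspa8 rose by 0.15 again (SE 0.04; adjusted p 0.0185), from 13.56, 13.59, 13.57 and 13.52 in DREAM+/- to 13.68, 13.71, 13.74 and 13.72. Hspa13 rose by 0.27 (SE 0.06; adjusted p 0.00632), a call that the mean of its 4 probe sets did not give (adjusted p 0.396). Hspbap1 rose by 0.20 (adjusted p 0.0494), and leaving out any of 12 of the 16 arrays ended that call (adjusted p up to 0.144). Dnajc2 fell again, from 9.57, 9.50, 9.42 and 9.32 to 9.10, 9.17, 9.29 and 8.84, to 78.3% of DREAM+/- (adjusted p 0.0052). Dnajc8 fell, with a log2 difference of -0.23 (adjusted p 0.0134). The groups of Dnajc2 and Dnajc8 did not overlap. Averaging all probe sets of a gene ended the calls of Hspa8 and Dnajc2 too (adjusted p 0.107 and 0.0513), and single arrays ended those of Hspa8 (DREAM+/- replicate 4, adjusted p 0.0562) and Dnajc8 (R6/2 x DREAM+/- replicate 1, adjusted p 0.0511).

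Genes called here and not against wild type were Dnajb1, up 0.22 (SE 0.07; adjusted p 0.0469), Dnajc6 (auxilin), up 0.15 (adjusted p 0.0428), and Hsp90aa1, up 0.14 (adjusted p 0.04997). The difference between backgrounds was not called for any of them. Dnajb1 read 10.49, 10.25, 10.35 and 10.41 in DREAM+/- and 10.68, 10.54, 10.56 and 10.60 in R6/2 x DREAM+/-, with no overlap. All 3 calls lie close to the threshold: leaving out any of 11, 10 and 13 of the 16 arrays, in that order, ended them (adjusted p up to 0.159). The count of 8 fell to 5 without wild-type replicate 1, DREAM+/- replicate 1, R6/2 replicate 1 or 4 or R6/2 x DREAM+/- replicate 4, to 4 without wild-type replicate 2 or DREAM+/- replicate 2, 3 or 4, and to 3 without R6/2 x DREAM+/- replicate 1. Without both arrays that stood apart it was 9, and with a common median 2 were higher and 2 lower. When 1 array at a time was left out, calls among all genes ran from 1304 to 2306.

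Genes that fell in R6/2 against wild type had the following values on this background. Hspa1a was 0.29 higher in R6/2 x DREAM+/- than in DREAM+/- (95% interval 0.08 to 0.50) with no overlap of the groups, and did not pass (adjusted p 0.062). Hspa1b differed by 0.21 (-0.26 to 0.68), Dnajb5 by -0.17 (-0.30 to -0.03; adjusted p 0.0969), Hsph1 by -0.08 (-0.18 to 0.02) and Hspb8 by -0.15 (-0.30 to 0.003). The R6/2 comparison on wild type and that on DREAM+/- have no array in common.

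**Figure D3:**
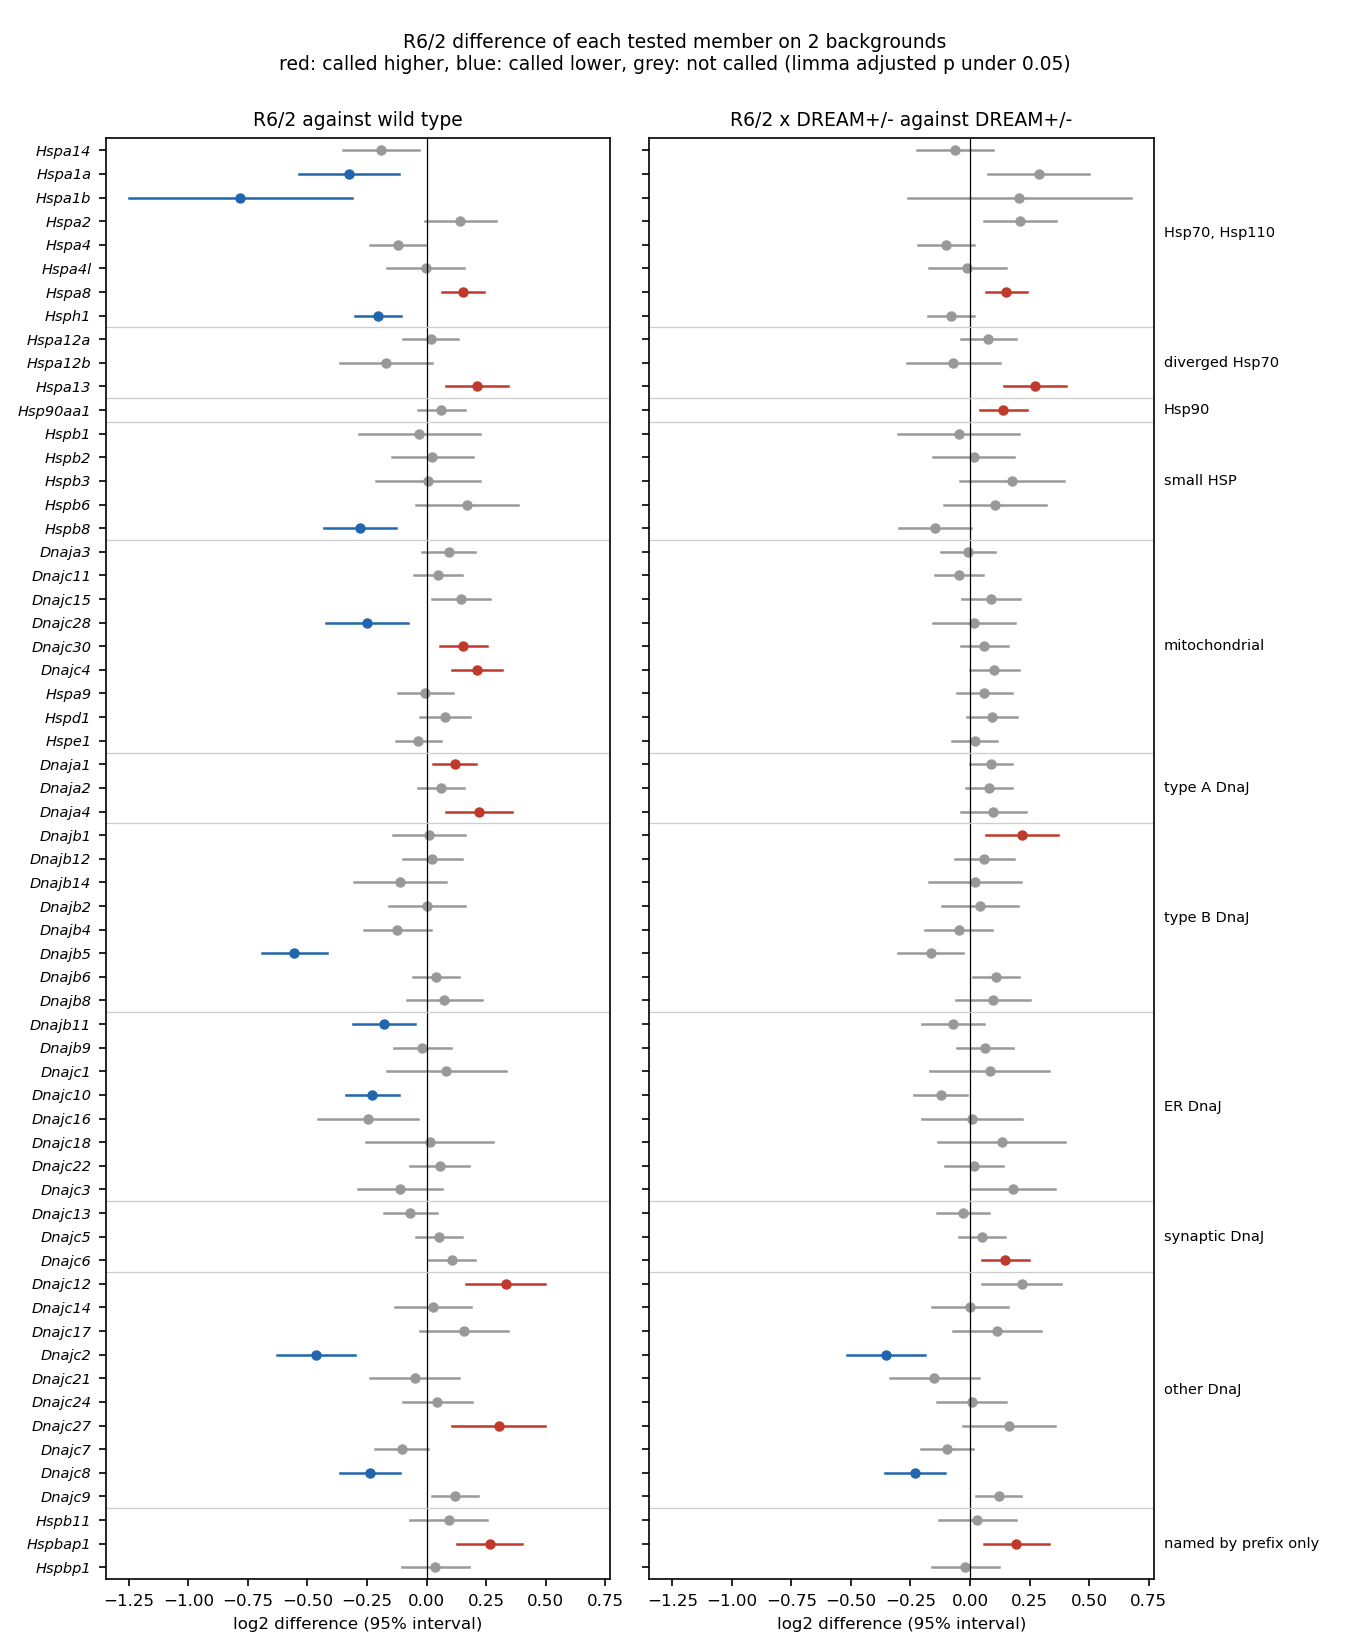
Log2 difference of each of the 61 tested chaperone genes with its 95% interval, R6/2 against wild type on the left and R6/2 x DREAM+/- against DREAM+/- on the right, grouped by role; red and blue points were called higher and lower. Hspa1a was at -0.33 on the left and 0.29 on the right, and Hspa8 at 0.15 on both.

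Whether the R6/2 difference changed with the DREAM genotype was tested as the interaction, the R6/2 difference on DREAM+/- minus that on wild type. None of the 61 chaperone genes and 0 of all 13011 genes passed (limma; 0% called), while 5 of the 61 and 898 of all genes had an unadjusted p under 0.05. The lowest p-values belonged to Hspa1a, with an interaction of 0.61 (95% interval 0.32 to 0.91; p 0.000428, adjusted p 0.42), Dnajb5, with 0.39 (0.20 to 0.58; p 0.000484, adjusted p 0.42), and Hspa1b, with 0.99 (0.33 to 1.65; p 0.0057, adjusted p 0.581). The Dnajb5 value is that of its brightest probe set. Another of its probe sets read 8.67 to 8.86 in wild type and 8.25 to 8.5 in R6/2. It read 8.57 to 8.78 in DREAM+/- and 8.19 to 8.51 in R6/2 x DREAM+/-. Over 27 other settings, the interaction of Hspa1a lay between 0.53 and 0.70 with adjusted p from 0.0939 to 0.781. That of Dnajb5 lay between 0.18 and 0.42, and that of Hspa1b between 0.76 and 1.19. No setting called Hspa1a, Dnajb5 or Hspa1b. The difference between backgrounds was therefore not established for any chaperone gene at this number of arrays.

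In DREAM+/- against wild type, without R6/2, 4 of the 61 genes were called, 1 higher and 3 lower (6.56%, beside 3.68% of all genes, 1.60% higher and 2.08% lower), and 10 had no overlap (16.4%, beside 12.5%). The median difference was -0.06, beside -0.03 over all genes. Hspa1a fell from 7.59, 7.83, 7.98 and 7.97 in wild type to 7.33, 7.36, 7.48 and 7.39 in DREAM+/-. Every DREAM+/- array was lower than every wild-type array, and the level was 73.1% of wild type (difference -0.45, SE 0.10; adjusted p 0.0154). That call was lost on leaving out wild-type replicate 4 or DREAM+/- replicate 1 (adjusted p up to 0.053). Hspa1b was lower on every DREAM+/- array too, at 8.29, 8.12, 8.33 and 8.34, and its difference of -0.65 (95% interval -1.12 to -0.18) did not pass (adjusted p 0.119). The other Hspa1b probe sets read 7.33 to 8.1 and 7.91 to 8.64 in wild type. In DREAM+/- they read 6.59 to 6.92 and 7.28 to 7.59, also without overlap. Hspb1 differed by -0.28 (-0.53 to -0.02), also with no overlap and not called (adjusted p 0.231).

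Dnajb5 fell to 9.87, 9.74, 9.72 and 9.79 in DREAM+/-, between the wild-type and the R6/2 arrays and overlapping neither. Its difference from wild type was -0.25 (SE 0.06; adjusted p 0.0377), and leaving out any of 6 arrays, wild-type replicates 1, 2 and 3 and DREAM+/- replicates 2, 3 and 4, ended the call (adjusted p up to 0.123). So did the mean of its probe sets, a replicate block and the Y-linked covariate (adjusted p up to 0.107). On the other Dnajb5 probe sets DREAM+/- read 8.57 to 8.78 and 8.98 to 9.13. Wild type read 8.67 to 8.86 and 9.05 to 9.3 there, so these groups overlapped. Dnajc10 fell to between 9.75 and 9.77 on all 4 DREAM+/- arrays, a log2 difference of -0.24 (SE 0.05; adjusted p 0.0142). All 3 of its probe sets were lower in DREAM+/-, with differences of -0.15, -0.21 and -0.24, and the call held in each of the 28 other settings. Dnajc28 rose from 6.72, 6.65, 6.34 and 6.68 to 6.94, 6.83, 6.98 and 6.88, by 0.31 (SE 0.08; adjusted p 0.0439), a call that leaving out any of 10 of the 16 arrays ended (adjusted p up to 0.118). The count of 4 fell to 2 without wild-type replicate 2 or 4 or any 1 DREAM+/- array. It stayed at 4 without both arrays that stood apart, and was 0 higher and 3 lower with a common median. Calls among all genes ran from 280 to 703 when 1 array at a time was left out. Wild type is also the control of the R6/2 comparison, so the lower Hspa1a, Hspa1b, Dnajb5 and Dnajc10 values in both are read against the same 4 arrays.

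In R6/2 x DREAM+/- against R6/2, 4 of the 61 genes were called, 3 higher and 1 lower (6.56%, beside 14.0% of all genes, 5.33% higher and 8.65% lower), and 7 had no overlap (11.5%, beside 15.8%). The median was -0.01 (all genes -0.03). Dnajc28 rose from 6.39, 6.43, 6.33 and 6.24 in R6/2 to 6.73, 6.92, 7.05 and 7.0, which is 149% of R6/2 (0.58, SE 0.08; adjusted p 0.000329). No arrays overlapped, its second probe set was 0.25 higher and not called, and the call of the first held in each of the 27 other settings that tested it. Its level in R6/2 x DREAM+/- was close to that in DREAM+/- (difference 0.02, 95% interval -0.15 to 0.19).

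Hspb8 rose from R6/2 by 0.25 (SE 0.07; adjusted p 0.0279), to 7.94, 7.75, 8.01 and 7.99, with replicate 2 inside the R6/2 range. That call was lost without R6/2 replicate 1 or 4 or R6/2 x DREAM+/- replicate 1 or 4 (adjusted p up to 0.094). Hspa4 rose by 0.18 (adjusted p 0.0402), from 9.93 to 10.05 in R6/2 to 10.09 to 10.24, and leaving out any of 8 arrays ended the call (adjusted p up to 0.108). Hspb11, an intraflagellar transport protein, fell, with overlapping groups and a log2 difference of -0.26 (adjusted p 0.0328), a call lost without R6/2 replicate 1 or 4 or R6/2 x DREAM+/- replicate 4 (adjusted p up to 0.102). Hsph1 was higher by 0.13 (95% interval 0.03 to 0.23) with no overlap and did not pass (adjusted p 0.0676), and Hspa1b was higher by 0.34 (-0.13 to 0.81) with broad overlap.

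The array that stood apart in this cross moved the count more than in the other comparisons. Without R6/2 x DREAM+/- replicate 3 there were 10 calls, and without R6/2 replicate 4 or R6/2 x DREAM+/- replicate 4 there was 1. Without both arrays that stood apart there were 8 (2 higher, 6 lower), of which 1 was among the 4 named above. The calls among all genes moved as well, from 1067 to 2708 over the fits that left out 1 array.

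**Figure D4:**
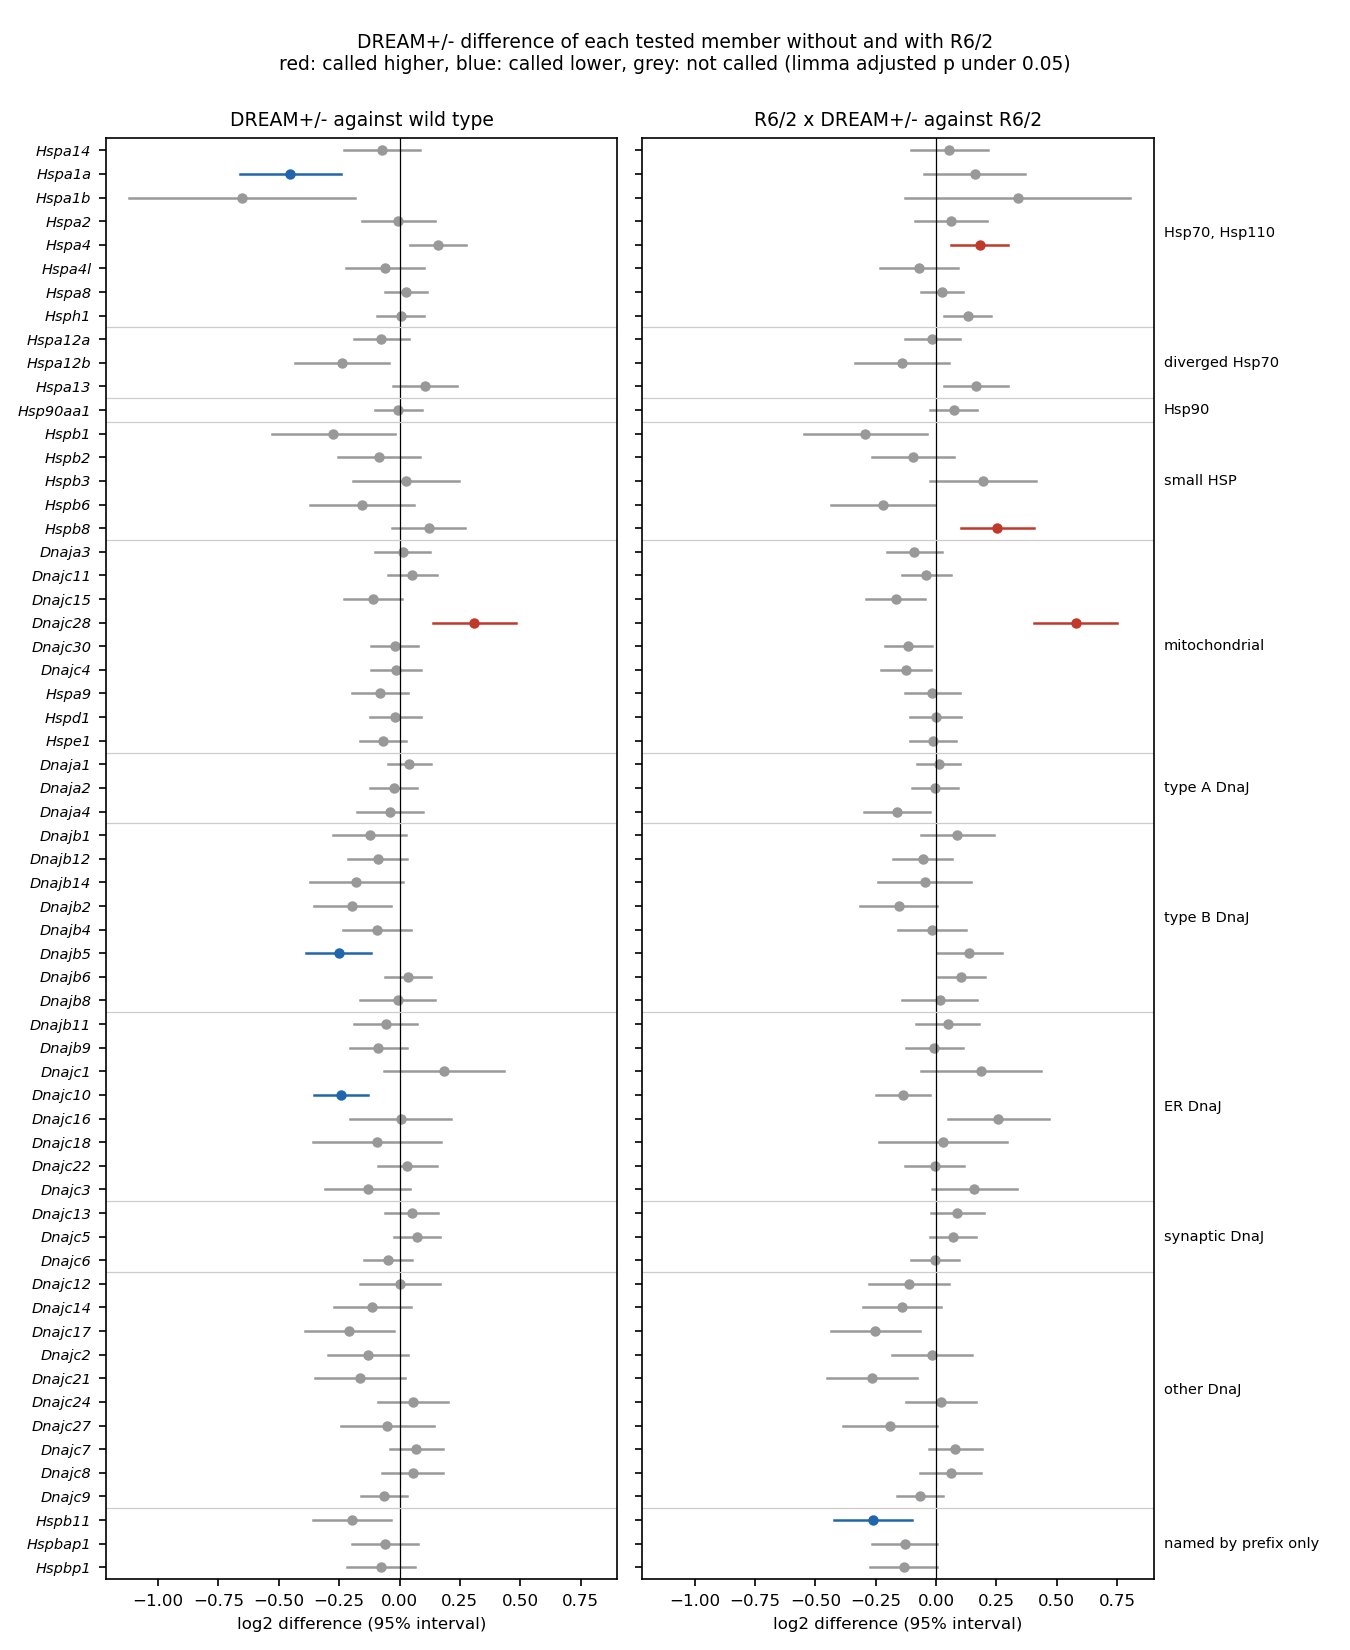
Log2 difference of each of the 61 tested chaperone genes with its 95% interval, DREAM+/- against wild type on the left and R6/2 x DREAM+/- against R6/2 on the right, grouped by role; red and blue points were called higher and lower. Dnajc28 lay at 0.31 and 0.58, and Hspa1a at -0.45 on the left.

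Taking all 4 genotypes at once, 26 of the 61 genes differed among them (42.6%, beside 42.5% of all genes; limma F test, adjusted p under 0.05). By role, the share was highest in cytosolic Hsp70 and Hsp110 (6 of 8) and in the ribosomal, nuclear and other DnaJ genes (7 of 10). It was 1 of 8 in the type B list, which leaves out Dnajb9 and Dnajb11. In the endoplasmic reticulum list, which holds these, it was also 1 of 8. No test of that difference between roles was made.

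**Figure D5:**
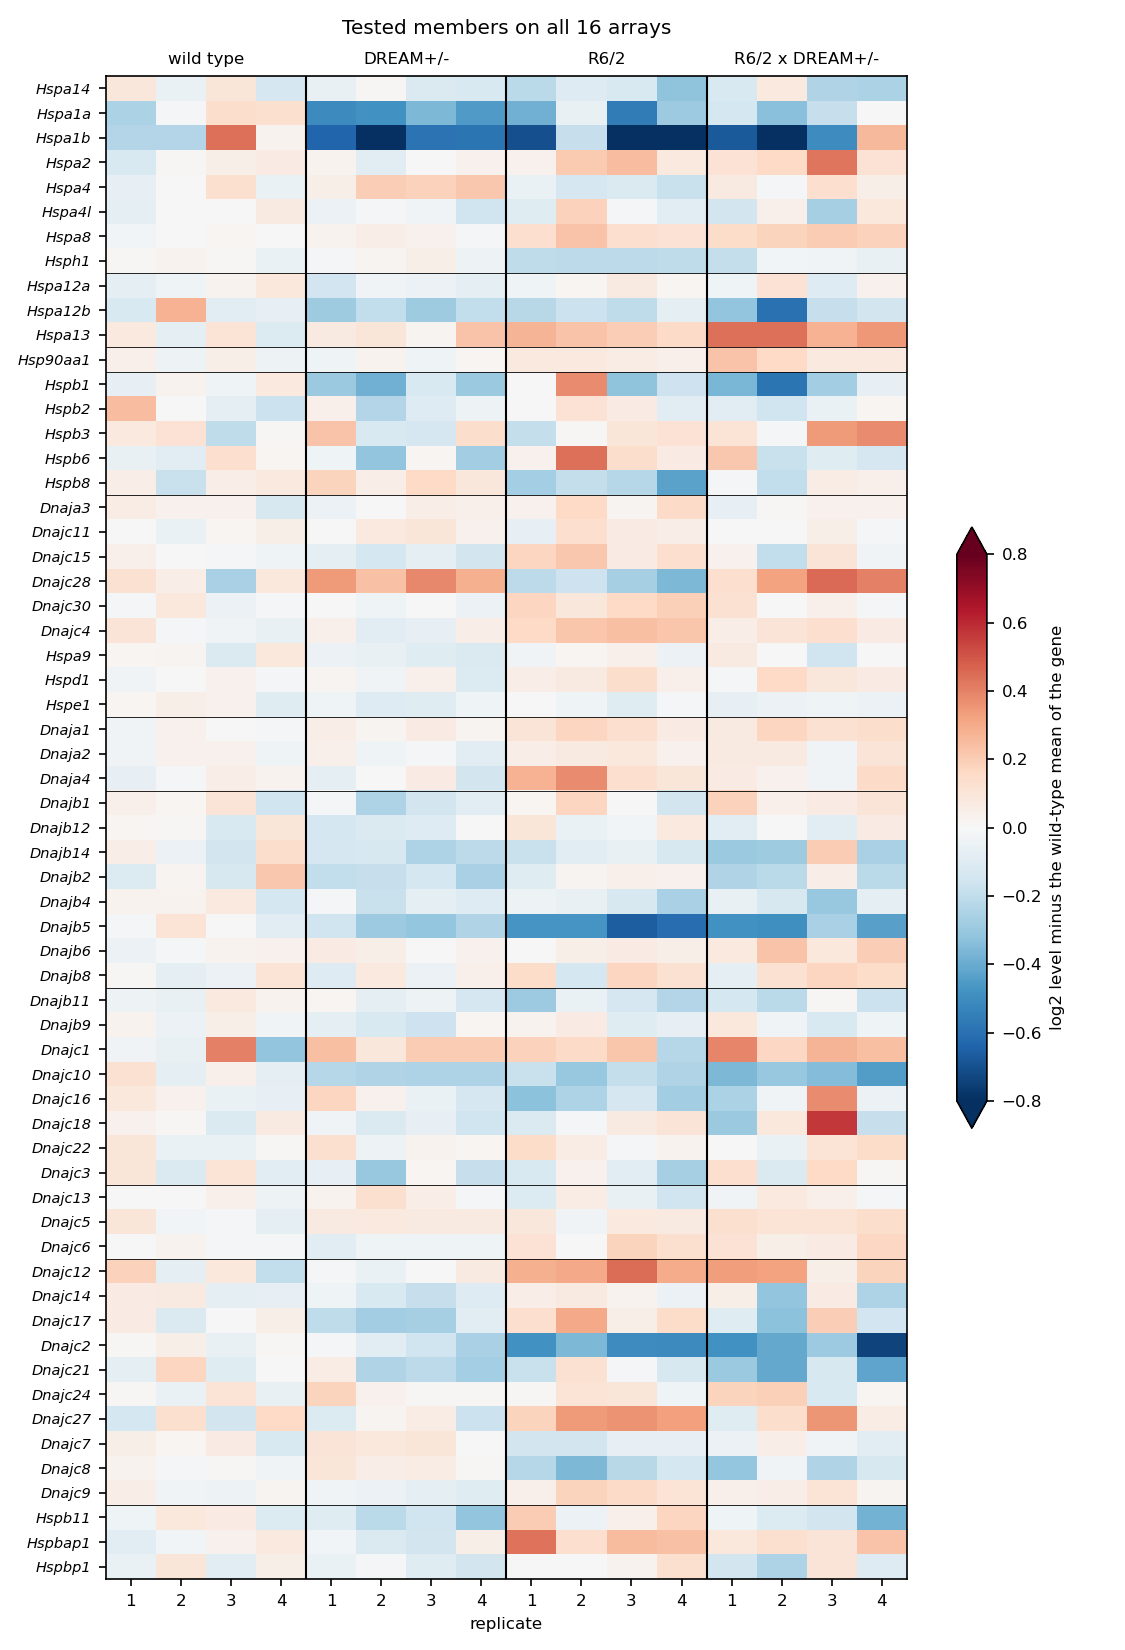
Log2 level of each tested chaperone gene on each of the 16 arrays minus the wild-type mean of that gene, grouped by role and genotype; the colour scale ends at 0.8 in both directions, and Hspa1b goes past it on some arrays. Hspa1b is lower on all 4 DREAM+/- arrays and higher on R6/2 replicate 2 and R6/2 x DREAM+/- replicate 4 than on the rest of their groups.

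Known HSF1 targets were followed as a list of 20 genes, of which 19 were tested and 6 are not among the 70 genes. In R6/2 against wild type 5 rose and 5 fell (13.5% and 11.9% of all genes did), with a median of -0.00 beside 0.03 over all genes. In R6/2 x DREAM+/- against DREAM+/- 6 rose and 0 fell (7.07% and 7.87% of all genes), with a median of 0.09 beside 0.02. In DREAM+/- against wild type 1 fell (2.08% of all genes), with a median of -0.0175 beside -0.025 over all genes. The differences there ran from -0.65 (Hspa1b) to 0.12, so the median of the list lay near that of all genes. In R6/2 x DREAM+/- against R6/2 1 rose and 1 fell (5.33% and 8.65% of all genes), with a median of 0.025 beside -0.0325. The higher genes in R6/2 included Stip1, the Hop adaptor between Hsp70 and Hsp90 (0.28, adjusted p 0.00296), and Fkbp4, an immunophilin of Hsp90 (0.34, adjusted p 0.00157). The mean level of the list, in which Hspa1a and Hspa1b count as separate genes, ran from 10.42 to 10.49 in wild type. In DREAM+/- it ran, without overlap, from 10.32 to 10.39. In R6/2 it ran from 10.34 to 10.53, across both of these ranges, and in R6/2 x DREAM+/- from 10.39 to 10.54. Within R6/2, replicate 2 was the highest array for 11 of the 19 genes (28.1% of all genes) and replicate 4 the lowest for 10 (22.2% of all genes). So arrays of the same genotype differed in several of these genes at once, and what sets those arrays apart was not tested.

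Members with and without an HSF1 repeat in the promoter window were counted in the same comparisons. Of 15 tested genes with a 2-unit match, 3 rose and 5 fell in R6/2 against wild type, and of 34 matched genes without one, 2 rose and 4 fell, where 25.4% of all genes were called. In R6/2 x DREAM+/- against DREAM+/- 0 of the 15 and 4 of the 34 were called (14.9% of all genes). Tested genes without a matched promoter are in neither count. Among these, Hspa8, Hspa13 and Dnajc2 were called in both R6/2 comparisons. Dnajc12 and Dnajc30 were called against wild type only, and Hsp90aa1 on DREAM+/- only. In DREAM+/- against wild type the counts were 2 of 15 and 2 of 34 (3.68% of all genes), and in R6/2 x DREAM+/- against R6/2 they were 1 of 15 and 3 of 34 (14.0% of all genes). No test of the difference between genes with and without a match was made.

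Of the heat shock factors and their regulators, Hsf1 was not analysed here, and of 7 listed genes 4 were tested: Hsf4, Hsbp1, Sirt1 and Ep300. In R6/2 against wild type all 4 had positive differences, from 0.11 to 0.20 with a median of 0.16 (0.03 over all genes), and on DREAM+/- they ran from -0.02 to 0.27 with a median of 0.18 (0.02 over all genes). Ep300, an acetyltransferase that acts on HSF1, rose in R6/2 against wild type by 0.18 (adjusted p 0.0473) and in R6/2 x DREAM+/- against DREAM+/- by 0.23 (adjusted p 0.0227), both with overlapping groups; the first call was lost without any of 12 of the 16 arrays (adjusted p up to 0.133). No other gene of this list was called.

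Cochaperones of Hsp70 and Hsp90 were tested as a list of 33 genes, some of them HSF1 targets as well. In R6/2 against wild type 6 rose and 5 fell, beside 25.4% of all genes called. Bag2, a nucleotide exchange factor that inhibits the ubiquitin ligase Chip, rose by 0.61 (SE 0.09; adjusted p 0.000107) without overlap, and Tomm70a, the mitochondrial import receptor that docks Hsp70 and Hsp90, fell, with a log2 difference of -0.27 (adjusted p 0.00227). On DREAM+/- 4 rose and 2 fell (14.9% of all genes were called), among the first Bag2 by 0.42 (adjusted p 0.00422) and Ahsa1, the activator of the Hsp90 ATPase, by 0.21 (adjusted p 0.00757). In DREAM+/- against wild type Cdc37l1 rose by 0.30 (adjusted p 0.0427) and no other gene of the list was called (3.68% of all genes). That call was lost without any of 8 arrays (adjusted p up to 0.122) and with the mean of its probe sets (0.362). In R6/2 x DREAM+/- against R6/2 2 rose and 5 fell (14.0% of all genes were called): Sgtb, a small glutamine-rich cochaperone of neurons, rose by 0.28 (adjusted p 0.0128), while Fkbp4 and Clpb, a mitochondrial disaggregase, fell, with log2 differences of -0.24 (adjusted p 0.0278) and -0.20 (adjusted p 0.0211). The fall of Fkbp4 was not called without R6/2 replicate 2 or 3 or R6/2 x DREAM+/- replicate 1 or 2, and that of Clpb was not called without R6/2 replicate 2; the highest adjusted p was 0.0787 and 0.066.

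The cytosolic chaperonin TRiC folds actin and tubulin and binds huntingtin fragments, and prefoldin delivers clients to it. The list tested had 16 genes, with the phosducin-like Pdcl and Pdcl3 beside those of TRiC and prefoldin. In R6/2 against wild type 7 rose and 0 fell (13.5% of all genes were higher), with a median of 0.12. The calls of Cct4, Cct5 and Pdcl held in each of the 28 other settings. Those of Cct2, Cct3, Tcp1 and Pdcl3 were lost with a common median. Leaving out any of 6, 2, 11 and 12 of the 16 arrays, in that order, ended them too. In R6/2 x DREAM+/- against DREAM+/- 8 rose and 0 fell (7.07% of all genes were higher), with a median of 0.14. Of these calls, those of Cct4 and Pdcl held in each of the 28 other settings. Leaving out any of 5 and 6 of the 16 arrays ended those of Cct5 and Vbp1 (adjusted p up to 0.0855 and 0.106). Those of Cct2, Cct3, Cct8 and Pfdn5 were each lost in at least 1 setting. Cct4 rose by 0.18 (adjusted p 0.00701) and 0.20 (adjusted p 0.00578) in these comparisons, and Pdcl, a phosducin-like cofactor of TRiC, by 0.27 (adjusted p 0.00485) and 0.39 (adjusted p 0.000439). In R6/2 x DREAM+/- against R6/2 Pfdn5 rose by 0.14 (adjusted p 0.0423) and Pfdn6 by 0.17 (adjusted p 0.0447). Leaving out any of 10 and 9 of the 16 arrays ended these calls, and each was lost in 8 of 12 other settings (adjusted p up to 0.135 and 0.122). No gene of this list was called in DREAM+/- against wild type.

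Markers of the cell types in the sample moved with the R6/2 transgene. Of 13 tested markers of medium spiny neurons, the main cells of the striatum, 11 fell in R6/2 against wild type (11.9% of all genes did). In R6/2 x DREAM+/- against DREAM+/- 12 fell (7.87% of all genes). The mean level of the list was 11.85 to 12.01 in wild type, 11.76 to 11.89 in DREAM+/-, 11.29 to 11.43 in R6/2 and 11.15 to 11.52 in R6/2 x DREAM+/-. Of 7 markers of cortical projection neurons, 5 fell in R6/2 against wild type and 4 rose in R6/2 x DREAM+/- against R6/2 (5.33% of all genes rose there). Their mean ran from 7.84 to 8.48 in R6/2, beside 8.67 to 8.89 in wild type and 8.56 to 8.89 in R6/2 x DREAM+/-. Among oligodendrocyte markers 3 of 7 fell in each R6/2 comparison, and among astrocyte markers 1 of 8 rose and 3 fell against wild type. No microglia, endothelial or choroid plexus marker was called in R6/2 against wild type, although the choroid plexus list ranged from 7.16 to 9.45 over the arrays, the widest of the lists. In the DREAM+/- comparisons at most 1 marker was called in each of the microglia, choroid plexus and endothelial lists. Over all genes, 3.68% were called in DREAM+/- against wild type and 14.0% in R6/2 x DREAM+/- against R6/2. The microglia list had medians of 0.16 in DREAM+/- against wild type and 0.17 in R6/2 x DREAM+/- against R6/2, with 1 of 8 called in each, C1qb, a complement gene, by 0.41 and 0.55 (adjusted p 0.00138 and 5.09e-05). The differences of this list ran from -0.29 to 0.72 and from -0.18 to 0.75, in that order. Its mean ran from 9.01 to 9.10 in R6/2 x DREAM+/- and from 8.82 to 8.96 in R6/2, without overlap, and from 9.09 to 9.14 in DREAM+/- and 8.80 to 9.10 in wild type. Of the choroid plexus markers 1 of 8 was called in each, the potassium channel subunit Kcne2, by 1.86 and 2.68 (adjusted p 0.0289 and 0.00146). Of the endothelial markers Kdr rose by 0.20 in R6/2 x DREAM+/- against R6/2 (adjusted p 0.0265). The part of these marker differences in the chaperone values was not tested.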

How the data were processed

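The deposited file holds log2 levels of 45101 probe sets on 16 arrays, 4 per genotype, from 3.34 to 14.71, in 1 table made by the authors. The submitters' processing notes list RMA and affy without saying what was done in which step. RMA brings all arrays to one distribution, so the values cannot show a change common to most genes. No version of these tools and no genome build is stated there. Groups and replicate numbers came from the sample titles, and the number of arrays limits the precision.

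Of the probe sets, 34945 had exactly 1 symbol in the platform annotation, 932 several and 9224 none or were controls, and only the first were used. Probe sets of several symbols of which 1 fits the rule (3 in all) were left out. Per gene, the probe set with the highest mean stood for it, and genes whose level was below 5.944, the 40th percentile over probe sets, were not tested. The test was limma's (version 3.58.1, R 4.3.3; lmFit and eBayes), with 1 mean per genotype and a spread shared by all 16 arrays. A gene was called where its p, adjusted by Benjamini-Hochberg over all genes tested, was under 0.05. The script was first tested on simulated data of known differences. Comparisons that share a genotype share its arrays.

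The members and lists were chosen with earlier results of these data known. Named genes were up to 8 called members per direction and pairwise comparison by size, the 3 lowest p-values of the interaction, a fixed set of 22 family members, Hsf1, up to 3 called genes per pathway list and comparison, and the members beside the filter limit. Tsc1, Hsf4, Hsbp1, Sirt1, Dnaja3, Dnajb4, Dnajb9, Dnajb14, Cct3, Cct8, Tcp1, Pdcl3, Vbp1, C1qb, Kcne2 and Kdr were named outside that rule, after their values were seen. So were the members called beyond 8 per direction. Alternatives changed the filter, the choice of probe set, the scaling, the variance model, array weights, a replicate block, sex-linked covariates (Xist, or the mean of Eif2s3y, Kdm5d and Uty), the arrays and the groups in the fit. Promoter sequences were read from a RefSeq table of GRCm38.p6, and both strands were searched.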

Additional observations from a re-analysis of the deposited data

Results flagged for a closer look

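In 9 of 128 groups of 4 arrays of a named gene, 1 array lay far from the other 3, with a gap to the nearest above Dixon's 95% limit of the group's range. Chance flags about 1 in 20 such groups. Among them, 2 concern R6/2 x DREAM+/- replicate 3, which stood apart over all genes: Dnajb2, a neuronal J protein, read 10.31 there and 10.02 to 10.04 on the others, and Hspa2 read 8.78 against 8.47 to 8.51. R6/2 replicate 1 was low for Dnajb2 (10.16, others 10.28 to 10.30) and for Dnajc27 (10.13, others 10.28 to 10.31). Dnajc5 read 11.07 on R6/2 replicate 2, where the others read 11.17 to 11.19. In DREAM+/-, Dnajc5 read 11.18 on replicate 2 and 11.17 on the rest, and Dnajc6 read 11.32 on replicate 1 and 11.38 on the rest, both with gaps that are small in size. Dnajc12 read 9.66 on R6/2 replicate 3 and 9.50 to 9.52 on the others. Hspb8 read 7.77 on wild-type replicate 2 and 8.0 to 8.03 on the other wild-type arrays. What sets these arrays apart for these genes was not tested.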

How the results depend on the processing

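Of 35 calls of chaperone genes in single comparisons, 9 held in each setting that tested them: Dnajb5, Dnajc12, Dnajc2, Dnajc4, Dnajc8, Hspbap1 and Hsph1 in R6/2 against wild type, Dnajc10 in DREAM+/- against wild type and Dnajc28 in R6/2 x DREAM+/- against R6/2. Of 44 calls of cochaperone, chaperonin and heat shock factor genes, 11 did. No chaperone gene that was called changed direction; the cochaperone Tsc1 went from -0.17 in R6/2 against wild type to 0.0033 with all its probe sets averaged. Leaving out 1 array at a time gave 13 to 22 calls for R6/2 against wild type, 3 to 9 for R6/2 x DREAM+/- against DREAM+/-, 2 to 4 for DREAM+/- against wild type, 1 to 10 for R6/2 x DREAM+/- against R6/2, 0 throughout for the interaction and 21 to 32 over the 4 genotypes. In that order, the calls among all genes ran from 2692 to 3718, 1304 to 2306, 280 to 703, 1067 to 2708, 0 to 2 and 4707 to 6309. The 8 calls in R6/2 x DREAM+/- against DREAM+/- became 4 with no filter on the mean level, 2 with the mean of all probe sets, 4 with arrays shifted to a common median, 5 with the Xist covariate, 4 with the Y-linked covariate and 5 with only the groups compared. The 4 calls in R6/2 x DREAM+/- against R6/2 became 9 with array weights, 8 without both arrays that stand apart and 1 with only the groups compared. The causes of these shifts were not tested. With the replicate number as a block, DREAM+/- against wild type had 2 calls and the other counts stayed within 1.5 times. Whether the numbers pair arrays across genotypes was not tested. Over 24 same-number pairs, correlations of deviations ran from -0.413 to 0.287, 11 of them over 0.1. Of 16 arrays, 8 correlated best with their own number, and no chance level was computed for these values. Scaling moved the median of all genes by at most 0.022 (log2).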
